A study of Mus musculus with 8 samples.

Results

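The genes described here are the splicing factors that the deposited tables of germinal centre B cells list under 4 family names: the SR proteins (Srsf), the heterogeneous nuclear ribonucleoproteins or hnRNP proteins (Hnrnp), the subunits of SF3a and SF3b (Sf3a, Sf3b), and the proteins of the small nuclear ribonucleoproteins or snRNPs (Snrp). They were taken by symbol alone, without regard to their values, which gave 49 of the 23471 entries: 11 SR, 18 hnRNP, 8 SF3 and 12 snRNP genes. A total of 46 passed the filter of 1 RPKM or more in at least 2 libraries and were tested among the 6447 genes of the table that did so. The 3 that did not pass are described at the end of their families.

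RNA was sequenced from germinal centre B cells of C57BL/6 mice, sorted as B220+ FAShigh GL7high on day 13 after immunisation with NP-KLH, a hapten coupled to a carrier protein. The Ctrl mice were Irf8+/+ and the Irf8 cKO mice Irf8flox/flox. Both groups carried a single copy of a Cre allele expressed in the B lineage and differed by the floxed alleles of Irf8, a transcription factor of B cells and myeloid cells. Each group had 2 libraries, 1 in experiment 1 and 1 in experiment 2, and the labels give neither the ages of the mice nor a statement that the libraries came from separate animals. The p-values therefore rest on the spread among these 4 libraries, which may be technical. As deposited, that spread was one shared by genes of like level and not the gene's own. The remaining 4 samples, cultured B cells given LPS, were not analysed here. The comparison asks which splicing factor transcripts differed between the libraries labelled Irf8 cKO and Ctrl, and whether the 4 families differed in this.

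Introns are removed by the spliceosome, which is assembled from snRNPs, each made of a small nuclear RNA, a ring of Sm proteins and proteins of its own. SF3a and SF3b are parts of the U2 snRNP and hold it at the branch site of the intron. SR proteins bind mostly exonic enhancers and promote the use of nearby splice sites, hnRNP proteins coat nascent RNA and often act as silencers, and many genes of both families limit their own level through exons that send the transcript to nonsense-mediated decay. In B cells alternative RNA processing selects, among other products, the membrane and the secreted form of the immunoglobulin heavy chain.

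The estimated depth was 63.2 M to 76.2 M reads per library, and a tested member had an estimated 81 to 19480 reads in a library. The sample labelled Irf8 cKO in experiment 2 stood apart from the other libraries. It had 4846 genes at 1 RPKM or more, against 6172 to 6567 in the others, a ribosomal precursor entry (Rn45s) at 16720 RPKM against 5887 to 9085, and a median-of-ratios size factor of 0.658 against 1.07 to 1.28. Irf8 itself was at 14.5 and 14.9 RPKM in Ctrl 1 and 2 and at 20.6 and 11.6 RPKM in the libraries labelled Irf8 cKO 1 and 2, so its level was not lower in both of them (log2 ratio 0.08 ± 0.35 SE as deposited, limma adjusted p = 0.880). After the scaling described below its ratio was 0.56 ± 0.18 (SE, limma adjusted p = 0.396). An RPKM over the whole gene also counts exons outside the floxed part, and the samples are therefore called by their labels. The germinal centre B cell markers Bcl6, Fas, Mef2b and S1pr2 were at 1 RPKM or more in every library, all 6 T cell markers (Cd3g and Cd8b1 at 0) and all 4 erythroid markers were below 1 RPKM in every library, and of 3 plasma cell markers only Xbp1 reached 1 RPKM in all. The 7 myeloid markers summed to 65.7 and 7.74 RPKM in Ctrl 1 and 2 and to 17.1 and 2.42 RPKM in labelled Irf8 cKO 1 and 2, with 4 of them below 1 RPKM throughout and none at 0 throughout. Their part in the results was not tested.

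As a group the splicing factors were well expressed, and no member passed the test in either direction. The median tested member had a mean of 7.57 RPKM, against 2.44 RPKM for the median tested gene, and 43 of the 46 lay above that median level. As deposited, all 46 log2 ratios (labelled Irf8 cKO over Ctrl, on log2(RPKM + 1), mean of both experiments) were below 0, from -0.77 to -0.01, with a median of -0.54. The median of all genes tested was also below 0, at -0.35. For genes with a mean of 3 RPKM or more it was -0.47, and -0.04 after the scaling given below. The members are higher in level than most genes, and log2(RPKM + 1) understates the changes of low genes. The part of level in these medians was not tested. With a pseudocount of 0.1 in place of 1, the median of all genes as deposited was -0.49. The family medians were then -0.66 for SR, -0.69 for hnRNP, -0.51 for SF3 and -0.35 for snRNP genes. limma with Benjamini-Hochberg adjustment called 0 members lower, where 1.1% of all genes tested were called lower, and 0 higher, where 0.0931% were. The lowest adjusted p was 0.190, and 9 members were lower at an unadjusted p under 0.05, where 18.6% of all genes were. After median-of-ratios scaling, which brought the median of all genes to 0.00, the members ran from -0.38 to 0.35 with a median of -0.09. limma again called 0 lower and 0 higher (0.0931% and 0.031% of all genes), the lowest adjusted p was 0.448, and 2 members were lower and 0 higher at an unadjusted p under 0.05 (4.61% and 5.97% of all genes). The SE of a member's log2 ratio was 0.26 to 0.35 as deposited and 0.15 to 0.34 after scaling, so these data give wide limits and a missed threshold does not show equal levels. In bulk RNA, fewer cells with a transcript and less of it per cell cannot be told apart.

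**Figure D1:**
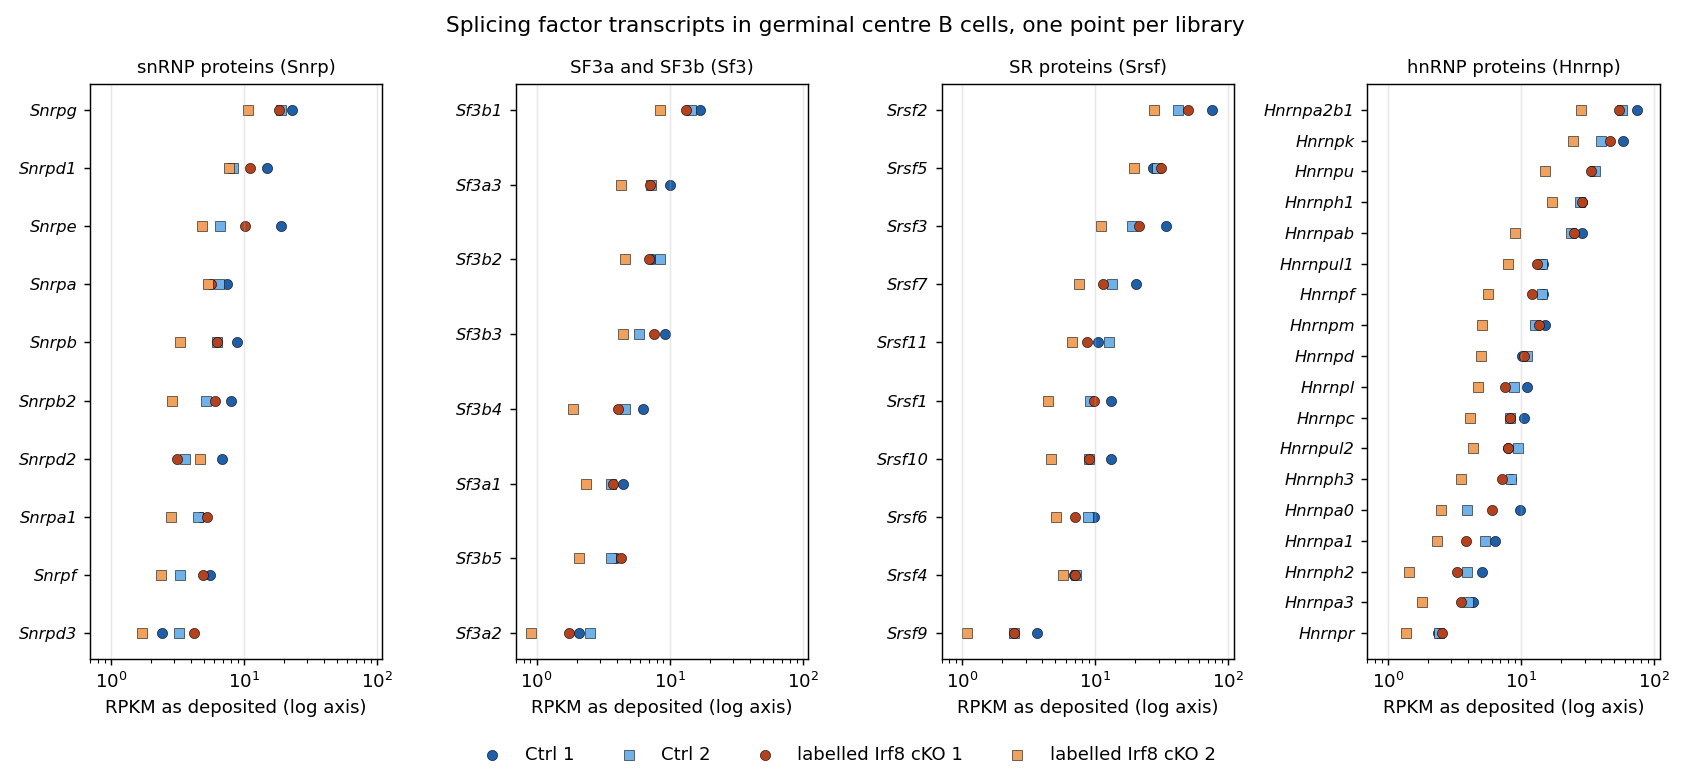
RPKM as deposited (log axis) of the 46 tested members in 4 panels by family, ordered by mean level, with a point for each of the 4 libraries (circles for experiment 1, squares for experiment 2). The library labelled Irf8 cKO 2 is the lowest point for 45 of the 46 members, all but Snrpd2.

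The plot of levels by library shows which library was lowest and highest for each member. The library labelled Irf8 cKO 2 was the lowest of the 4 for 45 of 46 members, against 85.4% of all genes tested. Ctrl 1 was the highest for 33 of 46, against 55.8% of all genes. Both shares were larger among the members, and the part of level in this was not tested. As deposited, the labelled Irf8 cKO libraries lay wholly below the Ctrl libraries for 23 members (4 SR, 11 hnRNP, 5 SF3, 3 snRNP), where 44.7% of all genes did, and wholly above for 0, where 1.19% did. After scaling they lay wholly below for 8 members, where 15.4% of all genes did, namely Hnrnpa1, Hnrnpa3, Hnrnpf, Hnrnph2, Hnrnpl, Sf3b1, Sf3b4 and Srsf7. They lay wholly above for 6, where 15.7% of all genes did, namely Hnrnph1, Sf3a1, Sf3b5, Snrpa1, Srsf4 and Srsf5. Both counts were near the background. For 29 of the 46 members the gap between the 2 Ctrl libraries after scaling was wider than the log2 ratio itself, as it was for 4050 of the 6447 genes tested.

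The medians of the 4 families differed between the 2 experiments. As deposited, the median log2 ratio in experiments 1 and 2 was -0.42 and -0.72 for SR, -0.23 and -0.95 for hnRNP, -0.22 and -0.67 for SF3, and -0.35 and -0.45 for snRNP genes, beside -0.18 and -0.51 for all genes tested. After scaling the SR genes stood at -0.20 in experiment 1 and -0.02 in experiment 2, and the hnRNP genes at 0.00 and -0.28. The SF3 genes were at -0.00 in both experiments, and the snRNP genes at -0.12 and 0.16. All genes stood at 0.01 in both. After scaling, the SR median was thus below all genes mainly in experiment 1, the hnRNP median mainly in experiment 2, and the snRNP median had opposite signs in the 2 experiments. As deposited, the SR, hnRNP and SF3 medians were below all genes in both experiments, and the snRNP median only in experiment 1. All 4 families were higher in level than the median tested gene, and the part of level in these gaps was not tested. No test of a difference between families was made, because genes of a family are not replicates.

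**Figure D2:**
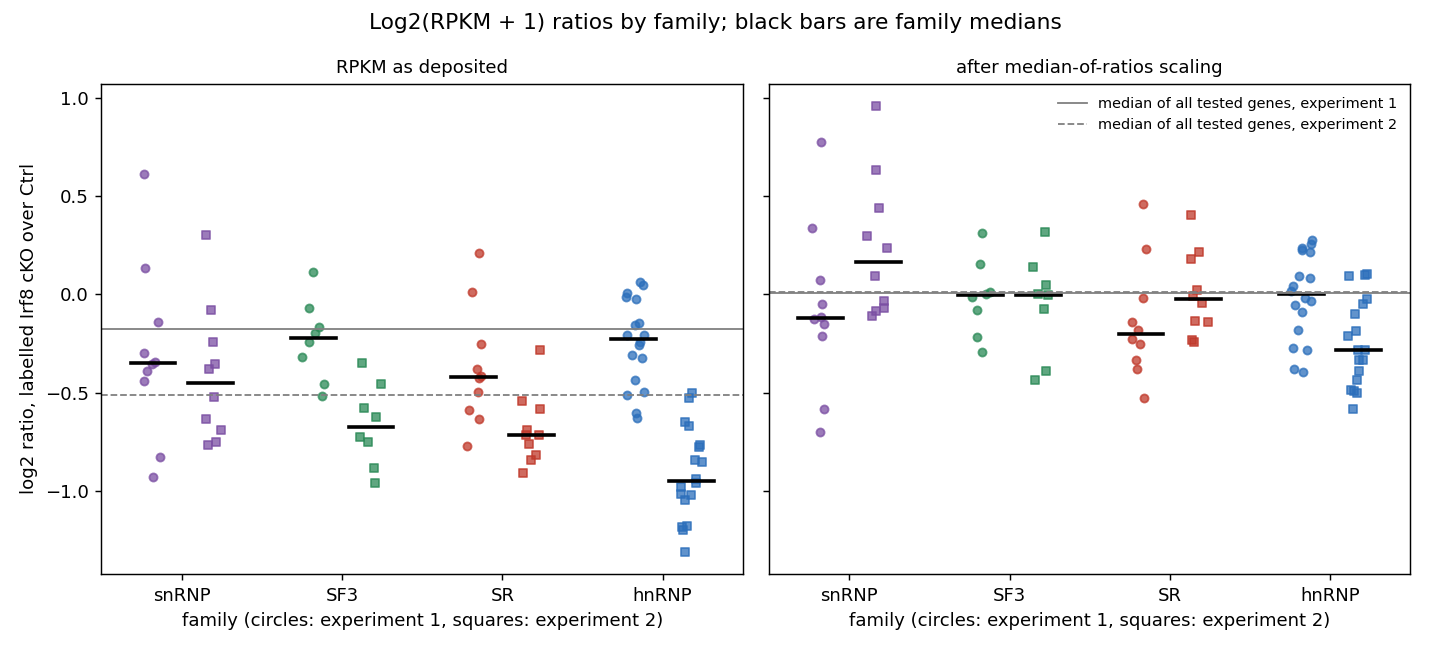
Log2(RPKM + 1) ratio of labelled Irf8 cKO over Ctrl for each tested member by family, as deposited (left) and after median-of-ratios scaling (right), with circles for experiment 1, squares for experiment 2, black bars at the family medians and grey lines at the medians of all genes tested. After scaling the hnRNP squares centre on -0.28 while the hnRNP circles centre on 0.00, and the snRNP points spread the widest.

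Counts of signs differed between experiments in the same families. As deposited, 37 of 46 members were below 0 in both experiments, where 71.2% of all genes were, and 0 were above 0 in both, where 2.75% were. After scaling, 15 of 18 hnRNP genes were below 0 in experiment 2 and 9 of 18 in experiment 1. For SR genes the counts were 8 of 10 in experiment 1 and 6 of 10 in experiment 2, for SF3 4 of 8 in each, and for snRNP 7 of 10 and 4 of 10, where all genes had 48.9% and 48.1% below 0. Across families, 18 of 46 members (39.1%) were below 0 in both experiments, where 27.3% of all genes were, and 7 (15.2%) were above 0 in both, where 30.2% of all genes were. The remaining 21 had opposite signs. Across the 46 members the ratios of the 2 experiments had a Spearman correlation of -0.07, beside 0.21 across all genes tested, given as descriptions over genes that share the same 4 libraries.

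**Figure D3:**
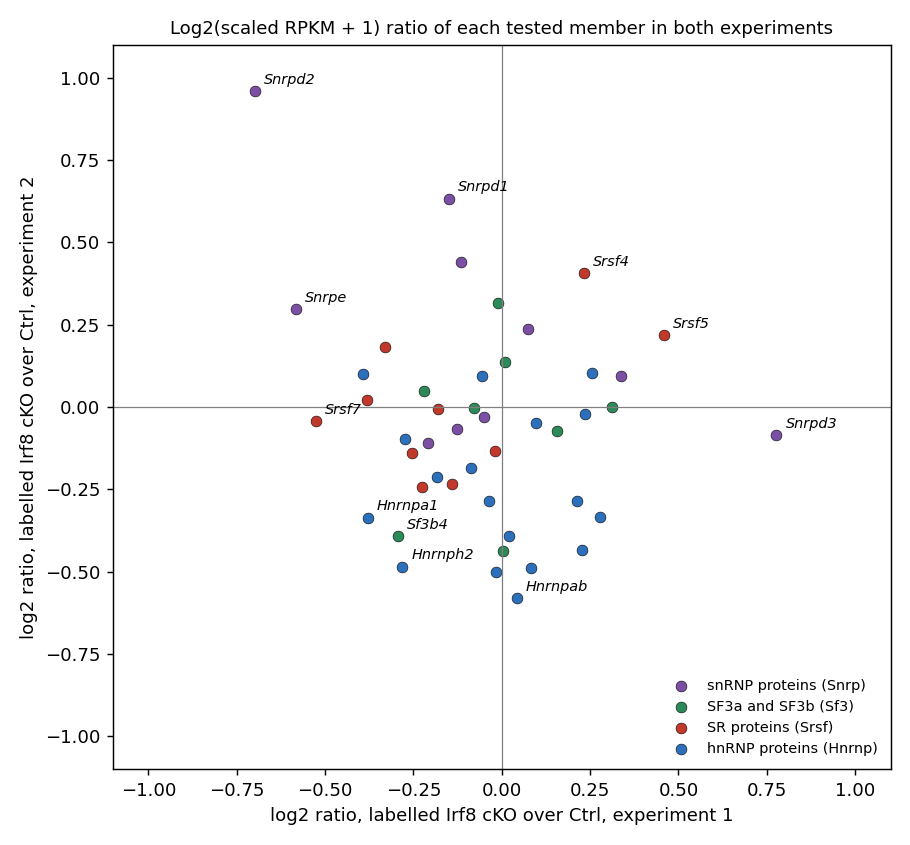
Log2(scaled RPKM + 1) ratio of labelled Irf8 cKO over Ctrl in experiment 1 (horizontal) against experiment 2 (vertical) for each of the 46 tested members, coloured by family. Hnrnph2, Hnrnpa1 and Sf3b4 lie low in both experiments, Srsf4 and Srsf5 lie above 0 in both, and Snrpd2 lies at -0.70 and 0.96.

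Within each experiment, the snRNP genes had the widest span of ratios among the 4 families, and genes of the core Sm ring stood at its ends. In the mean of both experiments their span was not the widest. Those scaled means ran from -0.16 to 0.35 for snRNP and from -0.28 to 0.34 for SR genes. For hnRNP genes they ran from -0.38 to 0.18, and for SF3 genes from -0.34 to 0.16. The Sm proteins encoded by Snrpb, Snrpd1, Snrpd2, Snrpd3, Snrpe, Snrpf and Snrpg form the ring around the small nuclear RNA. Snrpg was the highest of them per length, at 23.0 and 18.9 RPKM in Ctrl and 18.5 and 10.7 RPKM in the labelled Irf8 cKO libraries. Its groups did not overlap as deposited, but after scaling its ratio was -0.05 in experiment 1 and -0.03 in experiment 2 (mean -0.04 ± 0.17 SE, limma adjusted p = 0.949). Snrpd1 was at 14.9 and 8.27 RPKM in Ctrl and at 11.1 and 7.78 RPKM in the labelled Irf8 cKO libraries, and Ctrl 1 stood above the other 3. Its scaled ratio was -0.15 in experiment 1 and 0.63 in experiment 2. Snrpe showed the same high Ctrl 1, at 18.9 RPKM against 6.60 in Ctrl 2, 10.2 in labelled Irf8 cKO 1 and 4.85 in labelled Irf8 cKO 2. Its scaled ratios were -0.58 and 0.30, of opposite sign (mean -0.14 ± 0.23 SE, limma adjusted p = 0.856).

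Snrpb, which encodes SmB, was at 8.85 and 6.30 RPKM in Ctrl and 6.25 and 3.34 RPKM in the labelled Irf8 cKO libraries, and it had the lowest scaled mean of the family. That mean was -0.16 ± 0.15 (SE, limma adjusted p = 0.752), and the groups overlapped once scaled. Snrpf was at 5.53 and 3.32 RPKM in Ctrl and 4.92 and 2.38 RPKM in the labelled Irf8 cKO libraries, with overlapping groups and a scaled ratio of 0.15 ± 0.15 (SE, limma adjusted p = 0.758). A further 2 Sm genes, singled out after their values were seen, also had scaled ratios of opposite sign. Snrpd2 was at 6.88 and 3.62 RPKM in Ctrl and at 3.14 and 4.69 RPKM in the labelled Irf8 cKO libraries, the only member not lowest in labelled Irf8 cKO 2, with scaled ratios of -0.70 and 0.96. Snrpd3 was at 2.43 and 3.24 RPKM in Ctrl and 4.24 and 1.73 RPKM in the labelled Irf8 cKO libraries, with scaled ratios of 0.78 and -0.08. Both its highest and its lowest value were in libraries labelled Irf8 cKO, so that the groups overlapped.

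A further 3 tested snRNP genes encode proteins specific to U1 or U2. Snrpa encodes U1-A, which binds a loop of the U1 RNA, and was at 7.48 and 6.55 RPKM in Ctrl and 5.69 and 5.37 RPKM in the labelled Irf8 cKO libraries. Its groups did not overlap as deposited, but its scaled ratios were -0.12 and 0.44 (mean 0.16 ± 0.18 SE, limma adjusted p = 0.796). Snrpa1 and Snrpb2 encode the U2 proteins A′ and B″. Snrpa1 was at 4.76 and 4.49 RPKM in Ctrl and 5.32 and 2.82 RPKM in the labelled Irf8 cKO libraries, overlapping as deposited but higher in both labelled Irf8 cKO libraries once scaled. It was the snRNP gene with the highest scaled mean among those of 1 sign in both experiments (0.34 and 0.09, mean 0.22 ± 0.16 SE, limma adjusted p = 0.665). Snrpb2 was at 8.07 and 5.24 RPKM in Ctrl and 6.09 and 2.86 RPKM in the labelled Irf8 cKO libraries, overlapping, with a scaled mean of -0.10 ± 0.15 (SE, limma adjusted p = 0.855). Snrpc (U1-C) and Snrpn did not pass the filter. Snrpc was at 0.358 and 0.436 RPKM in Ctrl and 1.15 and 0.0615 RPKM in the labelled Irf8 cKO libraries, and Snrpn, the imprinted SmN gene of neurons, was between 0.0440 and 0.155 RPKM in all 4.

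Beside the span of the snRNP genes stand the gap between the Ctrl libraries and the transcript length. After scaling, their ratios spanned 1.48 in experiment 1 and 1.07 in experiment 2 on the log2 scale, against 0.98 and 0.65 for SR, 0.67 and 0.68 for hnRNP, and 0.60 and 0.75 for SF3 genes. The median gap between the 2 Ctrl libraries, without regard to sign, was 0.39 for snRNP, 0.32 for SR, 0.26 for SF3 and 0.14 for hnRNP genes, and 0.22 for all genes tested. Ctrl 1 was above Ctrl 2 for 8 of 10 snRNP genes. The snRNP genes were also the shortest, with a median transcript of 1204 bases against 2432 for SR, 2438 for hnRNP, 3222 for SF3 and 2906 for all genes. Over all genes tested, the scaled ratio had a Spearman correlation with length of 0.29 in experiment 1 and 0.06 in experiment 2. Over the 45 members with a length it was 0.34 and -0.26, of opposite sign in the 2 experiments. These are descriptions over genes of the same libraries. With the length trend removed, the scaled snRNP median over both experiments was 0.20, against 0.14 without that step. The part of length in the span of the snRNP ratios was not tested.

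The SF3 genes had scaled medians close to those of all genes in both experiments. Sf3b1, the large subunit that contacts the branch site and is recurrently mutated in blood cancers, was at 16.8 and 14.6 RPKM in Ctrl and 13.3 and 8.42 RPKM in the labelled Irf8 cKO libraries. The groups did not overlap on either scale, and the scaled ratio was -0.04 ± 0.17 (SE, limma adjusted p = 0.949). Once scaled they were barely apart, at 13.18 and 12.83 in Ctrl and 12.43 and 12.81 in the labelled Irf8 cKO libraries. Sf3b4, a small RNA-binding subunit, was at 6.32 and 4.60 RPKM in Ctrl and 4.12 and 1.87 RPKM in the labelled Irf8 cKO libraries. It was the SF3 gene with the lowest ratio, and its groups did not overlap before or after scaling, where it was at 4.95 and 4.05 in Ctrl against 3.86 and 2.85. Its log2 ratio was -0.74 ± 0.31 as deposited (SE, limma adjusted p = 0.207) and -0.34 ± 0.15 after scaling (limma adjusted p = 0.482). By experiment the scaled ratio was -0.29 and -0.39.

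The other named subunits had scaled ratios nearer 0 than that of Sf3b4. Sf3a3 was at 10.1 and 7.23 RPKM in Ctrl and 7.13 and 4.35 RPKM in the labelled Irf8 cKO libraries, with a scaled ratio of -0.09 ± 0.16 (SE). Sf3a1 was at 4.48 and 3.63 RPKM in Ctrl and 3.78 and 2.37 RPKM in the labelled Irf8 cKO libraries, with a scaled ratio of 0.07 ± 0.15 (SE). Sf3a3 did not overlap as deposited but did once scaled, whereas Sf3a1 overlapped as deposited and lay slightly higher in the labelled Irf8 cKO libraries once scaled. Sf3b2 was at 7.39 and 8.53 RPKM in Ctrl and 7.01 and 4.66 RPKM in the labelled Irf8 cKO libraries (scaled 0.04 ± 0.16 SE). Sf3b5 was at 3.93 and 3.63 RPKM in Ctrl and 4.33 and 2.10 RPKM in the labelled Irf8 cKO libraries, with scaled ratios of 0.31 and 0.00. As deposited the groups of Sf3b2 did not overlap and those of Sf3b5 did, whereas once scaled Sf3b2 overlapped and Sf3b5 lay higher in the labelled Irf8 cKO libraries. The scaled groups of Sf3b5 were barely apart, at 3.076 and 3.194 in Ctrl and 4.058 and 3.196 in the labelled Irf8 cKO libraries. The limma adjusted p of these 4 genes after scaling lay between 0.767 and 0.946. Sf3a2 and Sf3b3, the other two, had scaled means of -0.22 and 0.15.

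The promoters of the SF3 genes are shown because an ETS core stood in 5 of the 6 windows at hand. Sf3b4 and Sf3b5, which had the lowest and the highest scaled ratio of the family, had no window. Joint ETS and IRF elements, at which IRF8 is known to bind DNA with the ETS factor PU.1, were searched separately. The ETS core alone does not mark such an element. RefSeq promoter windows of GRCm38.p6, running from 250 bases before to 50 after the start, were at hand for 44 of the 49 members, 32 of them with the same start as the deposited entry. With each motif searched on both strands, the joint element was in 0 of 44 windows, against 2.68% of 16468 windows of all genes and 2.42% of those of tested genes. The interferon response form, which can overlap the former, was also in 0 of 44 (3.38% and 3.1%). The ETS core CCGGAAG was in 15 of 44 windows (34.1%), against 11.9% of all and 23.9% of tested genes. By family that was 5 of 6 SF3, 4 of 10 snRNP, 4 of 11 SR and 2 of 17 hnRNP windows. The E-box CACGTG, the site form of MYC, was in 5 of 44 (11.4%, against 8.17% and 10.5%), of which 4 were hnRNP genes. These matches describe letters and do not show binding. The stretches around the SF3 cores are given 5′ to 3′ along each gene, with the core in capitals (CTTCCGG where it lies on the opposite strand).
Sf3a1, chr11:4160322-4160353, plus strand, ending at the base before the start: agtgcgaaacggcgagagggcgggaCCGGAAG
Sf3a2, chr10:80798634-80798690, plus strand: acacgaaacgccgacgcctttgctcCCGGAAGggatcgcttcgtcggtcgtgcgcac
Sf3a3, chr4:124714746-124714802, plus strand: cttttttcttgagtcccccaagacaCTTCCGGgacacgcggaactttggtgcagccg
Sf3b2, chr19:5295456-5295493, minus strand: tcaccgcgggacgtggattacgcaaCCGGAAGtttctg
Sf3b3, chr8:110847001-110847053, minus strand: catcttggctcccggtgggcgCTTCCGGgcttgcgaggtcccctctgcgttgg
The core lay 7, 76, 90, 13 and 229 bases before the start of Sf3a1, Sf3a2, Sf3a3, Sf3b2 and Sf3b3. The window of Sf3b1 held no match.

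SR transcripts included some of the highest levels per length, and their scaled ratios ran from Srsf7 at the low end to Srsf5 at the high end. Srsf2 (SC35) was at 75.2 and 41.9 RPKM in Ctrl and 49.7 and 27.6 RPKM in the labelled Irf8 cKO libraries. Ctrl 1 stood above the rest, the groups overlapped, and the scaled ratios were -0.33 and 0.18 (mean -0.07 ± 0.23 SE, limma adjusted p = 0.929). Srsf3, the smallest SR protein, was at 33.8 and 18.9 RPKM in Ctrl and 21.4 and 11.1 RPKM in the labelled Irf8 cKO libraries. It followed Srsf2 in its pattern over libraries, with scaled ratios of -0.38 and 0.02 (mean -0.18 ± 0.19 SE, limma adjusted p = 0.777). Srsf7, a close relative of Srsf3 that also takes part in mRNA export, was at 20.1 and 13.5 RPKM in Ctrl and 11.3 and 7.54 RPKM in the labelled Irf8 cKO libraries. Its groups did not overlap before or after scaling, and it had the lowest mean of the family, -0.77 ± 0.35 as deposited (SE, limma adjusted p = 0.233) and -0.28 ± 0.19 after scaling (limma adjusted p = 0.633). The scaled value came almost wholly from experiment 1, at -0.53 against -0.04 in experiment 2.

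Srsf5 and Srsf4 stood at the other end. Srsf5 was at 27.0 and 28.9 RPKM in Ctrl and 31.4 and 19.6 RPKM in the labelled Irf8 cKO libraries, overlapping as deposited. Scaled, it was at 21.2 and 25.5 in Ctrl and 29.5 and 29.8 in the labelled Irf8 cKO libraries, which then lay above both Ctrl libraries. Its ratio was -0.16 ± 0.35 (SE) as deposited and 0.34 ± 0.19 after scaling (0.46 and 0.22 by experiment, limma adjusted p = 0.587), so its direction depended on the scaling. Srsf4 was at 6.92 and 7.16 RPKM in Ctrl and 6.98 and 5.70 RPKM in the labelled Irf8 cKO libraries, and at 5.42 and 6.30 against 6.54 and 8.67 once scaled. It too lay above both Ctrl libraries only after scaling (-0.14 ± 0.33 SE as deposited, 0.32 ± 0.16 scaled, limma adjusted p = 0.532). Srsf5 made up 12.7% and 19.0% of the summed SR RPKM in Ctrl and 19.9% and 20.9% in the labelled Irf8 cKO libraries, a share that does not depend on scaling and in which Ctrl 2 lay close to the labelled Irf8 cKO libraries. Both windows held the ETS core, and so did those of Srsf11 and of Srsf7, at the low end of the family. The start used for Srsf5 differs from the deposited one, and its window held a further match, not printed, 90 bases before that start.
Srsf4, chr4:131873402-131873458, plus strand: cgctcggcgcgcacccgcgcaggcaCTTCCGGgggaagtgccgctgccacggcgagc
Srsf5, chr12:80945451-80945498, plus strand: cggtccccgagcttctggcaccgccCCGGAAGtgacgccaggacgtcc

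Srsf1, the founding member of the family, was at 13.0 and 9.20 RPKM in Ctrl and 9.79 and 4.43 RPKM in the labelled Irf8 cKO libraries. The groups overlapped, and the scaled ratios were -0.14 and -0.23 (mean -0.19 ± 0.16 SE, limma adjusted p = 0.718). Srsf9 was at 3.62 and 2.43 RPKM in Ctrl and at 2.43 and 1.09 RPKM in the labelled Irf8 cKO libraries, where Ctrl 2 and labelled Irf8 cKO 1 were equal to 3 digits. Its scaled ratios, -0.23 and -0.24, were the most alike of the SR genes that lay below 0 (mean -0.23 ± 0.15 SE, limma adjusted p = 0.613). Srsf12 was listed at 0 RPKM in 3 libraries and at 0.0134 RPKM in labelled Irf8 cKO 1, and was not tested.

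The hnRNP genes held the lowest scaled ratios of all members, in Hnrnph2 and Hnrnpa1. Hnrnph2 lies on chromosome X (134601286 to 134607054, mm10) and encodes a protein that binds runs of G. It was at 5.06 and 3.93 RPKM in Ctrl and 3.29 and 1.44 RPKM in the labelled Irf8 cKO libraries, and at 3.96 and 3.46 against 3.08 and 2.19 once scaled. The groups did not overlap on either scale. The log2 ratio was -0.76 ± 0.30 as deposited (SE, limma adjusted p = 0.190) and -0.38 ± 0.15 after scaling (-0.28 and -0.48 by experiment), with a limma p of 0.0389 and an adjusted p of 0.448. Hnrnpa1, on chromosome 15 (103240432 to 103244955, mm10), encodes the best studied splicing silencer of the family. It was at 6.35 and 5.37 RPKM in Ctrl and 3.84 and 2.33 RPKM in the labelled Irf8 cKO libraries, and at 4.98 and 4.73 against 3.60 and 3.54 once scaled. Both labelled Irf8 cKO libraries lay below both Ctrl libraries on either scale. The scaled ratio was -0.38 in experiment 1 and -0.34 in experiment 2, with a mean of -0.36 ± 0.15 (SE, limma unadjusted p = 0.0469, limma adjusted p = 0.468). Hnrnpa1 is uncertain, since its deposited entry overlaps the entry Gm10052 and near-identical pseudogenes can share its reads.

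Hnrnph1, a close paralog of Hnrnph2, was below 0 like it as deposited and above 0 after scaling. It was at 28.7 and 27.7 RPKM in Ctrl and 28.8 and 17.2 RPKM in the labelled Irf8 cKO libraries, overlapping as deposited, with a log2 ratio of -0.32 ± 0.35 (SE, limma adjusted p = 0.529). Its scaled ratios were 0.26 and 0.10 (mean 0.18 ± 0.19 SE, limma adjusted p = 0.773). The ratio of Hnrnph1 to Hnrnph2 RPKM, which no scaling of a library moves, was 5.67 and 7.04 in Ctrl and 8.76 and 12.0 in the labelled Irf8 cKO libraries, with no overlap. The pair was picked after these values were seen, so the ratio is a description without a test. Reads that fit both paralogs could be split between them.

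The 3 hnRNP genes highest in RPKM, and Hnrnpc, had mean scaled ratios smaller than their SE. Hnrnpa2b1, a reader of RNA motifs in splicing and transport, was at 74.0 and 56.9 RPKM in Ctrl and 54.4 and 28.3 RPKM in the labelled Irf8 cKO libraries. The groups did not overlap as deposited but did once scaled (-0.20 ± 0.22 SE, limma adjusted p = 0.787). Hnrnpk, which binds runs of C through KH domains, was at 58.3 and 40.0 RPKM in Ctrl and 46.9 and 24.8 RPKM in the labelled Irf8 cKO libraries, with a scaled ratio of 0.02 ± 0.21 (SE, limma adjusted p = 0.982). Hnrnpu, a nuclear scaffold protein, was at 34.0 and 35.9 RPKM in Ctrl and at 33.5 and 15.2 RPKM in the labelled Irf8 cKO libraries. Only labelled Irf8 cKO 2 stood apart for Hnrnpu, and the scaled ratios were 0.23 and -0.43. Hnrnpc, which binds runs of U, was at 10.5 and 8.31 RPKM in Ctrl and 8.23 and 4.16 RPKM in the labelled Irf8 cKO libraries (scaled -0.14 ± 0.16 SE, limma adjusted p = 0.797).

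The authors' deposited table gives a p-value for each experiment, from a comparison of 1 library with 1 library. In experiment 1 of the authors' deposited table, none of the 46 tested members (0) had a p under 0.05, where 2.87% of genes were lower and 1.78% higher at that threshold, and the lowest member p was 0.0910. In experiment 2 the authors' deposited table had 1 member under 0.05, Hnrnpab, with a log2 ratio of -0.69 and a p of 0.0403, where 1.95% of genes were lower and 1.66% higher. Hnrnpab was at 28.9 and 23.8 RPKM in Ctrl and 24.9 and 8.99 RPKM in the labelled Irf8 cKO libraries, and its scaled ratios were 0.04 and -0.58. The value in labelled Irf8 cKO 1 thus lay between those of the Ctrl libraries.

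Family make-up differed little between the groups. Of the members' summed RPKM, which was 719.6 and 561.6 in Ctrl and 571.7 and 313.7 in the labelled Irf8 cKO libraries, the hnRNP genes took 47.9% and 51.9% in Ctrl and 50.4% and 46.0% in the labelled Irf8 cKO libraries. The mean was 49.9% ± 2.80 (SD, n = 2) against 48.2% ± 3.07 (SD, n = 2). SR genes took 28.4% ± 1.72 against 28.7% ± 1.55, snRNP genes 13.0% ± 1.52 against 14.2% ± 1.02, and SF3 genes 8.70% ± 0.446 against 8.93% ± 0.503 (SD, n = 2 each). The groups overlapped in all 4 families, and the difference between the means was smaller than the SD of the Ctrl libraries in each. Outside Rn45s, the members took 1.53% and 1.47% of all RPKM in Ctrl and 1.58% and 1.35% in the labelled Irf8 cKO libraries.

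**Figure D4:**
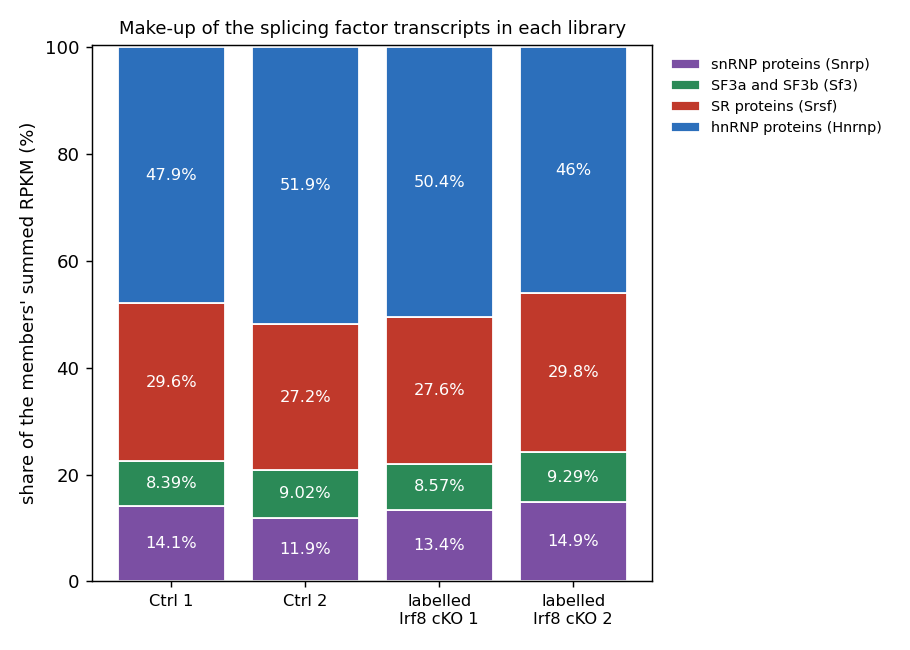
Share of the members' summed RPKM (%) taken by each family, 1 stacked bar per library. The hnRNP share runs from 46.0% to 51.9% and the snRNP share from 11.9% to 14.9%, and in each family the Ctrl and labelled Irf8 cKO bars overlap.

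Other genes of splicing and of linked RNA surveillance were taken from 9 lists. Over all genes tested, limma called 1.1% lower and 0.0931% higher as deposited, and 0.0931% and 0.031% after scaling. Of the 166 tested genes of these lists it called 0 lower and 0 higher on either scale, which is near those shares. Their lowest limma adjusted p-values were 0.0670 and 0.274. The lowest adjusted p as deposited was that of Rnps1, an SR-related protein of the exon junction complex, at 6.94 and 6.54 RPKM in Ctrl and 4.25 and 1.80 RPKM in the labelled Irf8 cKO libraries. Its groups did not overlap, and its ratio was -1.01 ± 0.31 as deposited (SE) and -0.61 ± 0.17 after scaling (limma adjusted p = 0.363). The other SR-related proteins and SR kinases had a scaled median of 0.12 over 24 genes including Rnps1, with Tra2b at -0.19, Srrm2 at 0.43 and Acin1 at 0.52. The proteins associated with U1 and U2 outside the 4 families had a scaled median of 0.17 over 24 genes, from Uhmk1 at -0.46 and Phf5a, a further SF3b subunit, at -0.29 to U2af1l4 at 0.47 and Cherp at 0.56. The tri-snRNP and Prp19 core stood at -0.00 over 37 genes (Ppil1 -0.39, Bud31 -0.38, Cwc22 0.27, Dhx16 0.33), and other regulators at 0.04 over 35 (Qk -0.29, Mbnl1 -0.27, Rbm25 0.41, Sfswap 0.41).

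The LSm proteins, some of which form the ring of the U6 snRNP, had a scaled median of -0.17 over 9 genes, the lowest of the 9 lists. They ran from Lsm5 at -0.44 and Naa38 at -0.40 to Lsm10 at 0.12 and Lsm4 at 0.46. The list named for the SMN complex, which loads the Sm ring, also holds genes outside that complex. It stood at -0.06 over 12 genes (Smn1 -0.48, Clns1a -0.28, Phax 0.05, Gemin7 0.17). The exon junction complex stood at 0.02 over 9 genes (Magoh -0.34, Rbm8a -0.23, Upf3b 0.36, Ddx39b 0.43), and the minor spliceosome at 0.12 over 8 (Snrnp35 -0.21, Ccdc84 -0.11, Zrsr2 0.24, Rnpc3 0.29). The factors of nonsense-mediated decay, the route by which SR and hnRNP genes limit themselves, had the highest scaled median, 0.28 over 9 genes. Its ends were Pnrc2 at -0.26 and Smg1 at 0.07, and Upf2 at 0.46 and Smg6 at 0.61. Smg6 was at 2.37 and 3.54 RPKM in Ctrl and at 3.65 and 3.45 RPKM in the labelled Irf8 cKO libraries, overlapping as deposited, and had the lowest adjusted p of these genes after scaling (limma, 0.274). No gene of these lists passed the threshold, and the medians are descriptions beside 0.00 for all genes tested.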

How the data were processed

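RNA-seq of 4 germinal centre B cell libraries was used. Per the labels' protocols, frozen cells gave RNA with the RNeasy kit, amplified with Ovation RNA-Seq v2 and made into libraries with Nextera XT, and the design text names Wardrobe for the analysis. Per the submitters' processing notes, TopHat2, Cufflinks, Cuffdiff and DESeq and the builds mm9 and mm10 were used, without roles. Whether TopHat2 aligned these libraries is not stated. For each experiment the authors deposited a table holding, for every library, the RPKM of each gene (its reads divided by transcript length and by the mapped reads of the library). Per the file headers each also holds a log2 ratio and a p-value of the authors. In experiment 1 the deposited log2 ratio equals that of the RPKM plus 0.205 (within 0.05 for 97.1% of genes), and in experiment 2 the constant is 0.721 (96.3% of genes). Of low RPKM values times transcript length (GENCODE M21), 72.4% to 74.7% came out as whole reads within 0.1, so no count model was run and depths are estimates.

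Differences were fitted over all 6447 genes at 1 RPKM or more in at least 2 libraries, on log2(RPKM + 1), which understates changes of low genes. limma 3.58.1 in R 4.3.3 was used (lmFit, eBayes with trend, 2-sided, experiment as block, 1 residual degree of freedom), with Benjamini-Hochberg adjustment at 0.05. The fits were run as deposited and after median-of-ratios scaling. As deposited the eBayes prior degrees of freedom were infinite, so a gene's own spread had no weight, and after scaling they were 6.62. The labels number the experiments, and deviations of same-numbered libraries from their group means correlated at 0.377 as deposited and 0.331 scaled. The scripts were tested on simulated data. Alternatives were another pseudocount, filter, scaling, variance model, block and length correction, and leaving out each library. Tables used pandas 2.3.3 and numpy 2.4.6 under Python 3.11.15, and figures matplotlib 3.10.9. Promoter windows came from RefSeq (GRCm38.p6), whose starts were compared with the deposited mm10 entries. Members, lists, markers, motifs and alternatives were chosen with earlier results of these data known.

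Named members were, in each family, the 3 highest in mean RPKM, the 2 highest and 2 lowest scaled ratios of 1 sign in both experiments, any that passed the threshold, and a set list of well-known members. Other lists were described by their 2 lowest and 2 highest genes. Snrpd2, Snrpd3, Hnrnpab and members named only for their overlap, ratio to another member or place outside the test were chosen after their values were seen. The driver of the Cre allele and some markers are not reported here.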

Additional observations from a re-analysis of the deposited data

How the results depend on the processing

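No member passed the threshold in either direction under any setting but one. As deposited, leaving out 1 library at a time gave 0 to 13 members called lower by limma, the 13 without the library labelled Irf8 cKO 1 (8 hnRNP, 2 SR, 2 SF3 and 1 snRNP gene, where 22.5% of all genes were called lower), and 0 after scaling. These fits had no block, and the lone library was assumed to vary like the other group. Without the replicate block 0 members were called lower, the lowest adjusted p was 0.614 as deposited and 0.988 scaled, and all medians were as before. Without the variance trend the lowest adjusted p as deposited was 0.0531.

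Leaving out each library gave hnRNP medians of -1.02 (without labelled Irf8 cKO 1) to -0.12 (without labelled Irf8 cKO 2) as deposited, and -0.29 (without labelled Irf8 cKO 1) to 0.03 (without labelled Irf8 cKO 2, a change of sign) after scaling. As deposited, the SR median was -0.15 with upper-quartile scaling, -0.21 with the length trend removed, and -0.97 to -0.22 leaving out each library. The SF3 median was -0.0126 with upper-quartile scaling. The snRNP median was 0.13 with upper-quartile scaling and 0.12 with the length trend removed, and -0.64 to -0.11 leaving out each library. Both settings also take out the displacement of all genes by construction. After scaling, leaving out each library gave -0.352 to -0.0322 for SR, -0.0527 to 0.0157 for SF3 and -0.0813 to 0.18 for snRNP. The scaled SF3 median was 0.0026 with a pseudocount of 0.1, 0.0416 with a mean of 3 RPKM or more, -0.0126 with upper-quartile scaling and -0.0494 with the length trend removed. Depth is estimated, so its part in the errors is not given.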
